A study of Homo sapiens with 26 samples.

Results

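Translation near the endoplasmic reticulum (ER) was set directly against translation at the outer mitochondrial membrane (OMM), gene by gene. It compares 8 ribosome profiling libraries from HEK293T, an established line of human embryonic kidney origin, and covers 6675 of 57770 genes. A gene was included if its own entry reached 64 coding-sequence footprints in each of the 4 total inputs, where the lowest included minimum was 64 footprints and the highest excluded one 63.98. The quantity followed is the log2 ratio of pulldown to total input at the ER minus the same log2 ratio at the OMM. The fit also held the 4 libraries of cytosolic LOV-BirA, which share its estimate of the spread. Positive values therefore mean a higher ratio at the ER and negative values a higher ratio at the OMM. A gene below its total input at both locations is called higher where it was less depleted.

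All 8 libraries came from lines in which RPL29, which sits in the large subunit of the ribosome, carries at its own locus the Avi tag. This short peptide is the substrate of the biotin ligase BirA, here in a form that blue light switches on (LOV-BirA). In the ER line LOV-BirA was fused to Sec61β and expressed from the SFFV promoter. In the mito line it was fused to the transmembrane segment of OMP25 and expressed from the EF1α promoter. Both are polyclonal lines made by lentiviral transduction and sorting, so location, promoter and line cannot be told apart. Cells received cycloheximide (CHX), which halts elongating ribosomes, and then biotin and light. For each location 2 lysates were each split into a total input and a streptavidin pulldown. Coding-sequence footprints came to between 6460934 and 19539527 per ER library and between 1025114 and 5455806 per mito library, and the mito pulldown of lysate 1 was the shallowest. ER lysate 2 and mito lysate 2 shared a sequencing run, whereas lysates 1 did not. All 6 HEK293T markers examined were found in the total inputs, from 1.31 RPKM for PAX2 to 1468 RPKM for VIM. Of 6 markers of blood, liver and endothelial cells, ALB, HBB and PECAM1 were at 0, and the highest value was 0.569 RPKM for APOA1.

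Ribosomes reach the ER mainly when a signal sequence or a first transmembrane segment leaves the ribosome, is bound by the signal recognition particle and is handed to the Sec61 translocon. Most mitochondrial proteins are made on cytosolic ribosomes and carry an amino-terminal presequence rich in basic residues and poor in acidic ones, which the TOM and TIM23 complexes import. Tail-anchored proteins have their only membrane segment at the carboxyl terminus and are inserted after translation ends. OMM proteins with amino-terminal anchors resemble ER signal-anchor proteins in sequence.

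The start of the coding sequence, which encodes the targeting signal of most of these proteins, is shown for genes near the top of each group. The first 60 bases (20 codons) were read 5′ to 3′ from GENCODE 44 transcripts on GRCh38, and capitals mark codons for arginine or lysine. Positions are those of the whole gene on GRCh38, with its strand. The first set stood towards the OMM and encodes long matrix proteins, with ALDH18A1 at chr10:95605941-95656711 (minus), GFM2 at chr5:74721206-74767147 (minus) and IARS2 at chr1:220094132-220148041 (plus).
ALDH18A1: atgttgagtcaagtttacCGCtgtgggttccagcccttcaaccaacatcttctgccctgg
GFM2: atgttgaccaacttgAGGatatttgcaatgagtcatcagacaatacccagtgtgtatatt
IARS2: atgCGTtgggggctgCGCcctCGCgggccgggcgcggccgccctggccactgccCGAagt
The second set also stood towards the OMM and encodes short proteins of the respiratory chain and its assembly, with FMC1 at chr7:139339457-139346328 (plus), COX5B at chr2:97646062-97648383 (plus) and NDUFB1 at chr14:92116122-92121917 (minus).
FMC1: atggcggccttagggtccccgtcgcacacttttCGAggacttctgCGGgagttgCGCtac
COX5B: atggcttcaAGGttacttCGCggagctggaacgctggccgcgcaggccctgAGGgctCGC
NDUFB1: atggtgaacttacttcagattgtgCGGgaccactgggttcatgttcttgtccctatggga
The third set stood towards the ER and encodes cell surface proteins, with ADAM23 at chr2:206443532-206621127 (plus), SORL1 at chr11:121452314-121633763 (plus) and SEMA4D at chr9:89360787-89498130 (minus).
ADAM23: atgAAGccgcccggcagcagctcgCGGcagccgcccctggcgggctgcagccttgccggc
SORL1: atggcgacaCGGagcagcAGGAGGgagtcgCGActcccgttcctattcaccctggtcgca
SEMA4D: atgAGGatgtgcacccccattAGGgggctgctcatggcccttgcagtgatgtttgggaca
The fourth set was enriched at both membranes, with C4orf48 at chr4:2041995-2043964 (plus), AKAP1 at chr17:57085092-57121346 (plus) and NMB at chr15:84655129-84658563 (minus).
C4orf48: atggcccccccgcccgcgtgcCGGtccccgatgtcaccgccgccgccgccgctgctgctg
AKAP1: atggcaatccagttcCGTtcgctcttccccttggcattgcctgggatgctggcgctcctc
NMB: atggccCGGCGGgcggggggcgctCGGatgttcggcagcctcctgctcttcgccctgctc
The last set encodes proteins listed as mitochondrial that were enriched at the ER alone, with STOM at chr9:121338987-121370304 (minus) and NAT8L at chr4:2059327-2069089 (plus).
STOM: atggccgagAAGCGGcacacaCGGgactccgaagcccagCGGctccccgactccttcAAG
NAT8L: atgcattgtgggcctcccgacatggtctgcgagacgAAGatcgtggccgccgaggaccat
These 20 codons held 1 to 4 basic codons in the first 4 sets. They held 0 acidic codons in all 3 matrix proteins, in COX5B, in ADAM23 and SEMA4D and in the fourth set, and 1 acidic codon each in FMC1, NDUFB1 and SORL1. STOM and NAT8L held 4 acidic codons each.

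Genes were sorted by whether the pulldown exceeded the total input at an adjusted p below 0.05. ER enrichment was called for 19.5% of the 6675 genes, OMM enrichment for 17.1%, and with cytosolic LOV-BirA 2.17% were called. At the ER only, 949 genes (14.2%) were enriched, and at the OMM only 786 (11.8%). Both locations were enriched for 355 genes (5.32%) and neither for 4585 (68.7%). Nuclear-encoded mitochondrial genes made up 33.7% of the class OMM only, 16.6% of the class both and 3.69% of the class ER only, against 10.2% of all genes. Genes outside the mitochondrial list whose protein holds a hydrophobic window (a stretch of 19 residues averaging 1.6 or more on the Kyte-Doolittle scale) made up 82.7% of ER only, 67.9% of both, 5.09% of OMM only and 26.04% of all genes.

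The values of single lysates, which entered the sorting, are given as a description. In ER only genes the median log2 enrichment was 2.01 and 1.89 in the ER lysates and −0.18 and −0.19 in the mito lysates. OMM only genes had medians of −0.46 and −0.39 at the ER and 0.86 and 0.88 at the OMM. In the class both the medians were 1.59 and 1.61 at the ER and 0.77 and 0.78 at the OMM. With cytosolic LOV-BirA, fitted medians lay between −0.04 and 0.06 in the 4 classes. These cytosolic libraries entered the sorting only through the shared estimate of the spread. The classes follow the scaling of the libraries. TMM, a scaling that centres the bulk of genes on no change, moved 238 ER only, 272 OMM only and 66 neither genes into the class both, which then held 931, while 0 genes passed from ER only to OMM only or back.

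**Figure D1:**
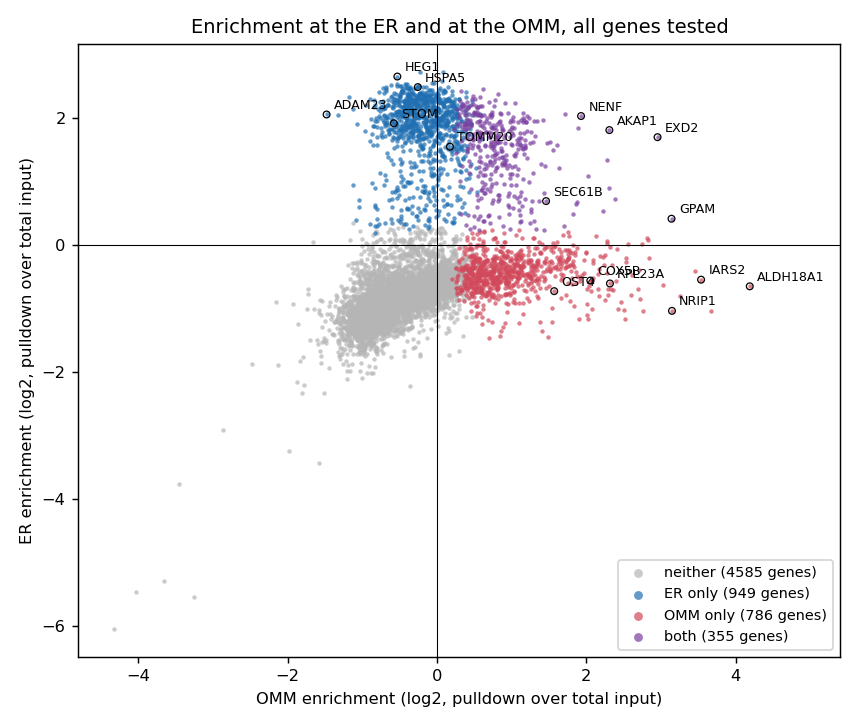
Each point is 1 of 6675 genes, with the fitted log2 OMM enrichment on the horizontal and the log2 ER enrichment on the vertical axis, coloured by class; labelled genes are circled. The 949 ER only genes form a cloud near 2 at the ER, the 786 OMM only genes extend along the horizontal axis up to ALDH18A1 at 4.19, and the 355 genes of the class both lie between them.

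A gene that is enriched at one membrane and misses the threshold at the other has not been shown to differ, so each class was split by the direct contrast. Of all 6675 genes, 1241 (18.6%) were higher at the ER and 2084 (31.2%) higher at the OMM. The median contrast of all genes was −0.28 on the log2 scale, and with TMM, where it was −0.03, 1425 (21.3%) were higher at the ER and 1061 (15.9%) at the OMM. The balance of ER and OMM calls therefore depended on the scaling, and list medians are given below relative to −0.28. Between the lysates that shared a sequencing run, lysate 2 at both locations, 1064 genes were higher at the ER and 923 at the OMM, of which 1059 and 916 were called in the same direction with all lysates. Each location is then 1 lysate, so the spread in these calls comes from the cytosolic lysates alone and the ER and mito lysates are assumed to vary like them.

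In the class ER only, 925 of 949 genes were higher at the ER and 24 were not called. In the class OMM only, 772 of 786 were higher at the OMM and 14 were not called. The class both was split into 224 genes higher at the ER, 31 higher at the OMM and 100 not called. Among the genes enriched at neither, 92 were higher at the ER, 1281 at the OMM and 3212 not called. The median log2 enrichment of the class neither was −0.85 at the ER and −0.60 at the OMM, below the total input at each. The class limits passed between genes of similar values. BNIP2 was just outside the ER limit with log2 0.33 (adjusted p=0.0536). SKIC8 was just inside the OMM limit with 0.26 (adjusted p=0.049), and GM2A, a lysosomal lipid-transfer protein, just outside with 0.30 (adjusted p=0.0525), which put GM2A among the ER only genes.

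Values in each library, given as footprints scaled to 1e+06 coding-sequence footprints per library (FPM), show the size of these differences. ALDH18A1, the enzyme that starts proline synthesis in the matrix, read 142 and 237 FPM in the ER total inputs and 91.9 and 149 in the ER pulldowns. In the mito line it read 187 and 192 in the total inputs and 3431 and 3460 in the pulldowns. Both mito pulldowns stood far above every other library, and the contrast was −4.83 (SE 0.13, adjusted p=2.3e-13). IARS2, the mitochondrial isoleucyl-tRNA synthetase, rose from 220 and 258 FPM to 2665 and 2871 at the OMM. At the ER it went from 187 and 287 to 125 and 202, and the contrast was −4.08 (SE 0.13).

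The 15 largest contrasts towards the OMM belonged to 13 mitochondrial genes and to NRIP1 and RESF1, among genes that had the same sign in all 4 pairings of an ER with a mito lysate, as the choice required. They were ALDH18A1, GFM2 (−4.70), NRIP1 (−4.18), IARS2, PMPCA (−4.04), GUF1 (−3.86), GPD2 (−3.79), RESF1 (−3.68), OXCT1 (−3.66), PTCD3 (−3.56), MMUT (−3.53), ELAC2 (−3.43), HADHB (−3.39), MIPEP (−3.38) and AARS2 (−3.35). GFM2 and GUF1 are mitochondrial translation factors, PMPCA and MIPEP process imported presequences, and OXCT1, MMUT and HADHB break down ketone bodies, branched-chain products and fatty acids. GPD2, which carries a hydrophobic window at residue 6, was the only one of the 15 with such a window. All 15 were below the total input at the ER, from −0.41 for GUF1 to −1.17 for RESF1.

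NRIP1, a corepressor of nuclear receptors, and RESF1, a factor in retroelement silencing, are not on the mitochondrial list. NRIP1 read 32.4 and 56.5 FPM in the mito total inputs and 310 and 470 in the pulldowns, against 38.4 and 55.4 and then 17.1 and 29.7 at the ER. Its 2 mito pulldowns were separated from all 6 other libraries. RESF1 went from 18.95 and 44.4 FPM to 117 and 240 at the OMM and from 31.7 and 35.6 to 12.3 and 18.6 at the ER. These 2 genes encode 1158 and 1747 residues. They are among 43 genes of the class OMM only that encode over 400 residues, are off the mitochondrial list and have no hydrophobic window.

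The 15 largest contrasts towards the ER spanned 3.11 to 3.54, a narrower range than on the OMM side. They were ADAM23 (3.54), SORL1 (3.51), SEMA4D (3.38), DCBLD2 (3.27), LRP6 (3.21), COL14A1 (3.20), FAT4 (3.19), HEG1 (3.19), PLOD2 (3.19), FRAS1 (3.15), ITGA4 (3.15), TMEM123 (3.14), SEMA6A (3.13), ITGA8 (3.11) and VCAN (3.11). Most are cell surface receptors or adhesion proteins, COL14A1 and VCAN are matrix proteins, and PLOD2 hydroxylates collagen lysines in the ER lumen. ADAM23, a disintegrin of the cell surface, went from 12.05 and 15.6 FPM to 57.9 and 55.1 at the ER and from 13.2 and 12.6 to 5.85 and 3.99 at the OMM. LRP6, the Wnt coreceptor, went from 24.8 and 37.7 to 141 and 161 at the ER and from 34.0 and 39.96 to 18.5 and 21.1 at the OMM. In both genes the ER pulldowns were the highest and the mito pulldowns the lowest libraries. COL14A1, PLOD2 and VCAN had no window at the hydropathy used, so that measure does not find every secreted protein.

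**Figure D2:**
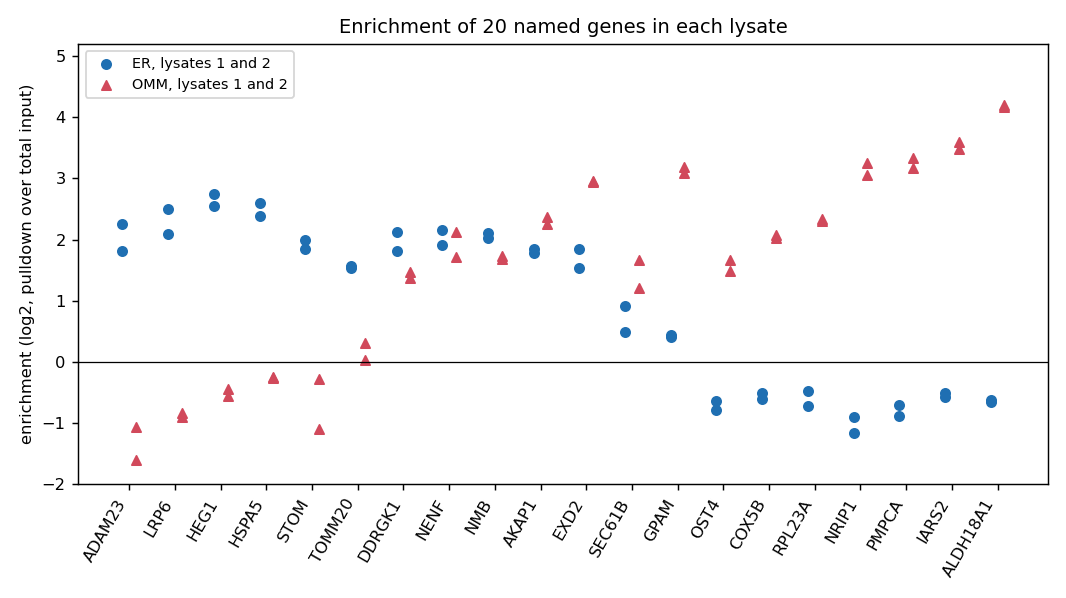
For 20 named genes, circles give the log2 ratio of pulldown to total input in each of 2 ER lysates and triangles the same in each of 2 mito lysates. ER and OMM points are far apart for ADAM23 and for ALDH18A1, interleave for NENF, and lie apart by less than 1 log2 unit for NMB and DDRGK1, with the ER points above.

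The class both was led by proteins of the secretory pathway and by 2 OMM proteins. By the smaller of the 2 enrichments the first 10 were NENF, C4orf48, AKAP1, NMB, EXD2, SCPEP1, ZDHHC12, SELENOM, DPM3 and DDRGK1. NENF, a secreted neurotrophic factor, read 202 and 161 FPM in the ER total inputs and 901 and 603 in the pulldowns, and 189 and 166 and then 622 and 724 in the mito libraries. Pulldowns exceeded total inputs about equally at both membranes, with log2 values of 2.15 and 1.91 at the ER and 1.72 and 2.13 at the OMM. The contrast of NENF was 0.11 (SE 0.15, adjusted p=0.586), and its sign depended on the lysates used. C4orf48 (−0.04, SE 0.15), NMB (0.36, SE 0.19), SCPEP1 (−0.02, SE 0.26), ZDHHC12 (0.12, SE 0.17), SELENOM (−0.06, SE 0.15) and DPM3 (0.14, SE 0.14) were likewise not called, and the signs of C4orf48, SCPEP1 and SELENOM turned with the scaling. With TMM, NMB (0.61, adjusted p=0.0124) and DPM3 (0.39, adjusted p=0.0351) were called higher at the ER. NMB is the precursor of the peptide neuromedin B, SELENOM an ER selenoprotein and DPM3 a subunit of dolichol-phosphate mannose synthase.

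AKAP1, which anchors protein kinase A and RNA at the OMM, was strongly enriched at both membranes. It read 69.0 and 66.1 FPM and then 246 and 228 at the ER, and 103 and 74.7 and then 487 and 385 at the OMM. The ER and OMM values did not overlap between lysates (1.84 and 1.79 against 2.25 and 2.37), and the contrast was −0.49 (SE 0.14, adjusted p=0.00787). The call was lost with TMM (−0.24, adjusted p=0.203), without ER lysate 2 (−0.47, adjusted p=0.0508) and without mito lysate 2 (−0.43, adjusted p=0.0928). EXD2, an exonuclease anchored in the OMM, went from 17.98 and 24.6 to 65.0 and 71.1 FPM at the ER and from 26.9 and 30.8 to 207 and 240 at the OMM, with a contrast of −1.25 (SE 0.20). DDRGK1, an ER protein of the UFMylation pathway, was higher at the ER by 0.54 (SE 0.15, adjusted p=0.00762), a call lost without ER lysate 1 (0.38, adjusted p=0.127) or mito lysate 1 (0.49, adjusted p=0.081).

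Of the 31 genes of the class both that were higher at the OMM, 22 were mitochondrial, 4 carried a hydrophobic window and 5 were neither. GPAM, which makes the first intermediate of glycerolipid synthesis at the OMM, had the largest contrast at −2.72 (SE 0.18). It read 28.8 and 37.6 and then 38.2 and 50.8 FPM at the ER and 35.2 and 36.05 and then 300 and 328 at the OMM. Of the 224 genes higher at the ER, 175 carried a hydrophobic window and 17 were mitochondrial. The class both encoded shorter proteins than ER only, with a median of 269 residues against 505.

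ER machinery and cargo lay on the ER side with defined exceptions. Cell surface receptors and adhesion proteins had a relative median of 2.90, and 41 of 42 tested members were higher at the ER with 0 higher at the OMM. The next lists were secreted and matrix proteins (relative median 2.79, 35 of 35), solute carriers outside SLC25 (2.57, 30 of 31), ER lumenal chaperones (2.14, 27 of 30) and lipid and sterol enzymes (2.05, 33 of 36), again with 0 members higher at the OMM. Members with large contrasts were INSR (3.02), FBN2 (2.99), SLIT2 (2.95), COL4A5 (2.94), SLC30A1 (2.98), SLC20A2 (2.74), EDEM3 (2.82), HSPA5 (2.75), DNAJC3 (2.60), HACD2 (2.78), HACD3 (2.502) and MSMO1 (2.41). HSPA5, the main Hsp70 of the ER lumen, rose from 938 and 1026 to 5672 and 5364 FPM at the ER and went from 968 and 1105 to 812 and 923 at the OMM. Of the 30 lumenal chaperones, 15 were ER only and 15 were in the class both.

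The translocon itself was divided. Of 29 tested members of the translocation and signal recognition list, 18 were higher at the ER and 6 at the OMM (18 and 4 with TMM), with a relative median of 1.06. SEC61A1 (2.66), SEC63 (2.48) and TRAM1 (2.22), which cross the membrane several times, led towards the ER. The 6 on the OMM side were SEC61G (−1.55), EMC6 (−1.40), GET3 (−1.32), SRP14 (−1.24), SEC61B (−0.76) and SRP9 (−0.49). SEC61G and SEC61B are the small tail-anchored subunits of the translocon, with 68 and 96 residues, SRP9 and SRP14 are small proteins of the signal recognition particle, and GET3 delivers tail-anchored proteins. SEC61G read 287 and 273 and then 255.5 and 296 FPM at the ER and 157 and 270 and then 475 and 746 at the OMM. SEC61B read 52.2 and 60.7 and then 73.3 and 114 at the ER and 43.9 and 40.9 and then 100.9 and 129 at the OMM. With TMM the calls of SEC61B (−0.51, adjusted p=0.0615) and SRP9 (−0.24, adjusted p=0.348) were lost. Both were also lost without ER lysate 1 (−0.54 and −0.39, adjusted p=0.106 and 0.185), SEC61B without mito lysate 2 (−0.50, adjusted p=0.172) and SRP9 without mito lysate 1 (−0.17, adjusted p=0.488). The ER line also carries the SEC61B coding sequence in its LOV-BirA fusion, and the part of transgene footprints in these values was not tested. In the oligosaccharyltransferase and signal peptidase list 13 of 16 were higher at the ER, led by RPN2 (2.75), STT3B (2.62) and SPCS2 (2.43). The 2 members on the OMM side were the small subunits OST4 (−2.29) and TMEM258 (−1.18), of 37 and 79 residues. OST4 went from 280 and 194 to 161 and 124 FPM at the ER and from 288 and 218 to 909 and 609 at the OMM.

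Tail-anchored SNARE and related proteins gave 0 members higher at the ER and 14 of 24 higher at the OMM (7 with TMM), with a relative median of −0.31. In the classes, 5 were OMM only and 19 neither. CYB5A (−2.07), cytochrome b5, SERP1 (−1.46), a small ER stress protein, and STX4 (−1.43), a plasma membrane syntaxin, had the largest contrasts. CYB5A went from 20.8 and 28.1 to 65.3 and 80.8 FPM at the OMM and from 27.5 and 26.2 to 19.6 and 18.7 at the ER. The other genes with a hydrophobic window in OMM only that led by contrast were MZT2B (−2.72), MZT2A (−2.70), BRI3 (−2.11), CCDC167 (−1.82), DST (−1.77) and C4orf3 (−1.77). MZT2A and MZT2B are near-identical copies, so their values are uncertain. In all, 40 such genes were OMM only, with a median length of 176.5 residues against 523 for the 785 in ER only, and 8 of the 40 had their first window within 40 residues of the start, against 459 of the 785.

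Lists of imported mitochondrial proteins lay on the OMM side. Of 42 small nuclear-encoded OXPHOS subunits and assembly factors, 40 were higher at the OMM and 0 at the ER (relative median −1.45), led by FMC1 (−2.72), COX5B (−2.61) and COX6C (−2.55). COX5B, a subunit of cytochrome c oxidase, went from 642 and 620 to 2623 and 2608 FPM at the OMM and from 693 and 611 to 487 and 402 at the ER. Small TIM and CHCHD proteins of the intermembrane space followed (relative median −1.21, 12 of 14), with CHCHD2 (−2.36), CHCHD10 (−2.20) and TIMM10 (−1.94). Matrix translation and RNA factors had 29 of 36 (relative median −1.11), matrix metabolic enzymes 34 of 39 (−0.53) and matrix import, peptidases and chaperones 15 of 25 (−0.37), where TRAP1 stood at −2.66. With TMM these 3 counts were 24, 22 and 9. TFAM, which packages the mitochondrial genome, was the 1 member of the translation and RNA list higher at the ER (0.48, SE 0.15), and TIMM23 (1.34) and TIMM22 (0.51), the channel proteins of the inner membrane translocases, were the 2 of the import list. TFAM lost its call without ER lysate 1 (0.48, adjusted p=0.0586), ER lysate 2 (0.47, adjusted p=0.0564) or mito lysate 2 (0.34, adjusted p=0.216), and TIMM22 without ER lysate 2 (0.39, adjusted p=0.194) or mito lysate 1 (0.29, adjusted p=0.296).

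SLC25 carriers, which span the inner membrane 6 times and lack a cleaved presequence in most cases, differed little between the membranes. Of 22 tested, 10 were higher at the OMM (2 with TMM), 2 at the ER and 10 were not called, with a relative median of −0.23, and 19 were in the class neither. SLC25A1 (−1.18) and SLC25A11 (−0.71) were higher at the OMM and SLC25A21 (0.89) and SLC25A14 (0.66) at the ER. Without mito lysate 1 these last calls were lost, with SLC25A21 at 0.58 (adjusted p=0.135) and SLC25A14 at 0.55 (adjusted p=0.128), and also without ER lysate 1 (0.79 and 0.56, adjusted p=0.119 and 0.155). OMM proteins themselves were divided evenly around the median of all genes (relative median −0.01). Of 47 tested, 15 were higher at the OMM (9 with TMM), 10 at the ER (13 with TMM) and 22 not called. Over all 6675 genes, 31.2% were higher at the OMM (15.9% with TMM) and 18.6% at the ER (21.3% with TMM). The counts of OMM proteins were thus close to the shares of all genes. GPAM, ARMCX3 (−2.20) and TOMM7 (−1.98) led towards the OMM. The 10 on the ER side were FAF2 (1.92), ATAD1 (1.76), MUL1 (1.62), USP30 (1.48), CYB5R3 (1.47), TOMM20 (1.38), RMDN3 (1.02), PTRH2 (0.81), TOMM40 (0.72) and CPT1A (0.58). Membership of this list does not mean that a protein is found at the OMM alone. ATAD1 extracts mislocalized tail-anchored proteins, MUL1 is a ubiquitin ligase, USP30 a deubiquitinase and RMDN3 a tether to the ER. CPT1A lost its call without ER lysate 1 (0.57, adjusted p=0.0896), ER lysate 2 (0.59, adjusted p=0.0721) or mito lysate 1 (0.39, adjusted p=0.169), and RMDN3 without mito lysate 2 (0.88, adjusted p=0.0991).

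TOMM20, the presequence receptor of the OMM, went from 327 and 295 to 975 and 853 FPM at the ER. At the OMM it read 275 and 310 in the total inputs and 279 and 382 in the pulldowns. Only the ER pulldowns stood apart, and the contrast was 1.38 (SE 0.14, adjusted p=4.0e-07). In all, 35 nuclear-encoded mitochondrial genes were in ER only, and 29 of them were higher at the ER in the direct contrast. The largest contrasts were STOM (2.499), NAT8L (2.26), OCIAD1 (2.09), SPTLC2 (2.05), CCDC127 (1.83), ATAD1, MUL1 and USP30. STOM, SPTLC2, a subunit of serine palmitoyltransferase, and NAT8L are known at other membranes too. These 35 proteins had a median of 302 residues, 10 of them (28.6%) held a window within 40 residues of the start, and 6 (17.1%) exceeded 400 residues. Of the 265 mitochondrial genes in OMM only, 4 (1.51%) held such an early window, 113 (42.6%) were under 200 residues and 96 (36.2%) over 400. The median net charge of the first 30 residues was 4 in OMM only against 2 in ER only. Over all 684 mitochondrial genes 5.85% held an early window, 24.9% were under 200 residues and 35.4% over 400, with a median charge of 3. The share over 400 residues in OMM only was thus close to that of all mitochondrial genes.

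ER-mitochondria contact proteins and peroxisomal proteins were mixed. Of 32 contact proteins, 12 were higher at the ER and 5 at the OMM (relative median 0.54). The shares of all 6675 genes were 18.6% and 31.2%. ACSL3 (2.65), SOAT1 (2.28) and RRBP1 (2.10) stood on the ER side and FIS1 (−1.38), PACS2 (−0.92), VDAC1 (−0.67), VAPB (−0.58) and MTCH2 (−0.51) on the OMM side. PACS2, VAPB and MTCH2 lost their calls with TMM, at −0.67, −0.33 and −0.25, and VDAC1 with mapped reads as library sizes (−0.37, adjusted p=0.0801) and with DESeq2 (−0.41, adjusted p=0.0972). PACS2 was also not called without ER lysate 1 (−0.60) or mito lysate 2 (−0.86). Nor were VAPB without ER lysate 2 (−0.51) or mito lysate 1 (−0.43) and MTCH2 without mito lysate 1 (−0.43). Of 12 peroxisomal proteins, PEX13 (1.66), PEX14 (1.57) and PEX3 (1.05) were higher at the ER, the transporter ABCD3 (−0.75) was higher at the OMM, and 8 were not called.

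**Figure D3:**
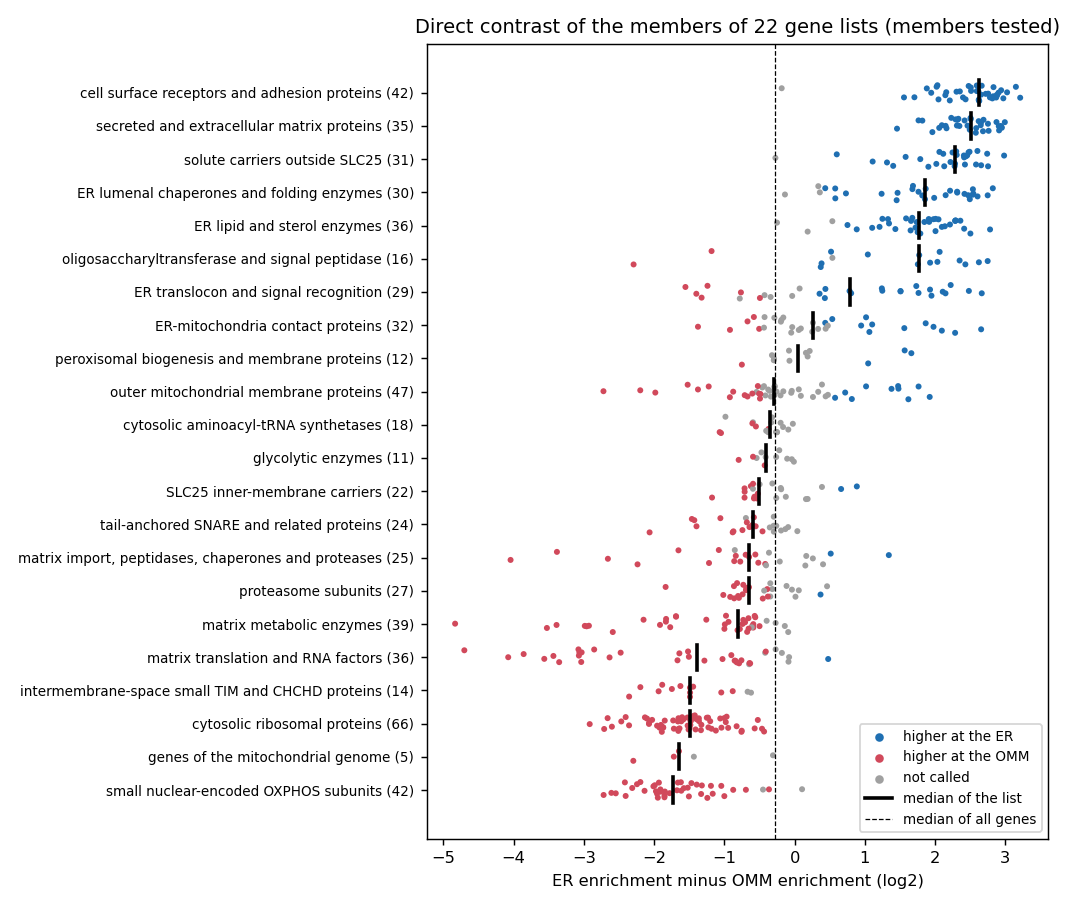
Each point is a tested member of 1 of 22 gene lists, placed by its log2 ER enrichment minus log2 OMM enrichment and coloured by its call; thick bars are list medians and the dashed line is the median of all genes (−0.28). Cell surface and secreted proteins lie furthest to the right, small OXPHOS subunits and cytosolic ribosomal proteins to the left, and OMM proteins and contact proteins cross the dashed line.

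Cytosolic proteins did not form a uniform background. All 66 tested cytosolic ribosomal proteins were higher at the OMM (61 with TMM), with a relative median of −1.21, and 56 were OMM only. RPL23A went from 372 and 423 to 1825 and 2132 FPM at the OMM and from 485 and 372 to 295 and 266 at the ER, with a contrast of −2.92 (SE 0.17), ahead of RPS18 (−2.71) and RPLP1 (−2.66). Both mito pulldowns stood above the other 6 libraries. These genes have many processed pseudogenes, and the study masked positions that are not unique, so only part of each coding sequence was counted. RPL29, the tagged subunit, stood at −0.52 (SE 0.15, adjusted p=0.00976), a call lost with TMM (−0.27, adjusted p=0.184), without ER lysate 1 (−0.32, adjusted p=0.178) and without mito lysate 1 (−0.44, adjusted p=0.103). Proteasome subunits had 17 of 27 higher at the OMM (11 with TMM) and 1 at the ER, with a relative median of −0.37. PSMA7 (−1.84), PSMB4 (−1.02) and PSMD7 (−0.92) led. PSMD7 lost its call with mapped reads as library sizes (−0.61, adjusted p=0.0740) and with DESeq2 (−0.66, adjusted p=0.0683), and also without mito lysate 1 (−0.76). PSMD6 (0.37) was the exception, a call lost without ER lysate 2 (0.29) or either mito lysate (0.36 and 0.38). Glycolytic enzymes (3 of 11 higher at the OMM, 1 with TMM, relative median −0.13) and cytosolic aminoacyl-tRNA synthetases (5 of 18, 1 with TMM, −0.07) were close to the median of all genes, with TPI1 (−0.80), LDHA (−0.59), TARS1 (−1.07) and RARS1 (−1.05) the largest calls. LDHA and TARS1 lost their calls with TMM (−0.34 and −0.81). LDHA also lost its call without ER lysate 2 (−0.47) or mito lysate 1 (−0.47). TARS1 did so without ER lysate 1 (−0.82), mito lysate 1 (−0.996) or mito lysate 2 (−1.20). Over all 6675 genes, 31.2% were higher at the OMM (15.9% with TMM), so the counts of these 2 lists did not exceed that share. Every tested glycolytic enzyme and cytosolic synthetase was in the class neither. HK1 (−0.54, SE 0.23) and QARS1 (−0.99, SE 0.43) were not called, but both were with the 8 ER and mito libraries alone (−0.55 and −0.996, adjusted p=0.0255 and 0.00889), and QARS1 was without ER lysate 2 (−1.27, adjusted p=0.0401). The 5 tested genes of the mitochondrial genome, which ribosomes without RPL29 translate, were depleted in both pulldowns (medians −5.47 at the ER and −3.65 at the OMM). For these, 3 were called in the contrast, MT-CO3 (−2.30), MT-ND5 (−1.72) and MT-CYB (−1.65). MT-ND5 was not called with TMM (−1.46, adjusted p=0.0962) or with any 1 of 3 lysates left out, ER lysate 1 (−0.83, adjusted p=0.271), mito lysate 1 (−1.78, adjusted p=0.0775) or mito lysate 2 (−1.32, adjusted p=0.605). MT-CO3 was not called without mito lysate 2 (−2.66, adjusted p=0.0947). MT-CYB was not called with DESeq2 (−1.49, adjusted p=0.0555). With lysates 2 alone none of the 3 was called (−1.57 for MT-CO3, −0.90 for MT-ND5 and −1.002 for MT-CYB).

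Protein length, which the sorting did not use, set OMM only and, to a lesser degree, both apart from ER only and neither. Proteins under 200 residues made up 53.7% of OMM only, 28.2% of both, 6.12% of ER only and 6.26% of neither, against 12.99% of all 6657 genes with an annotated coding sequence. Median lengths were 190, 269, 505 and 546 residues. Outside the mitochondrial list this held with and without a hydrophobic window. Of genes with neither property, 57 of 81 (70.4%) were OMM only at up to 100 residues, 46.3% at up to 200, 20.5% at up to 300, and 7 of 643 (1.09%) above 1000, each length bin beginning where the one before it ended. Their median OMM enrichment ran from 0.90 to −0.85 over these bins and their ER enrichment from −0.36 to −1.18, while the cytosolic values were −0.29 in the shortest bin and between −0.04 and 0.06 in the others.

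Mitochondrial genes departed from this order at the OMM. Their median OMM enrichment was 1.56 at up to 100 residues, 0.85 at up to 200, 0.11 at up to 300 and 0.05 at up to 400. It was then 0.27 at up to 600 residues, 0.68 at up to 1000 and −0.41 in the 18 genes above 1000. In the same order, the share in OMM only was 74.3%, 64.7%, 23.0%, 17.8%, 39.5%, 44.4% and 22.2%. At the ER their medians ran from −0.22 in the shortest bin to −0.95 in the longest. Among genes with a hydrophobic window, 9 of 19 up to 100 residues were OMM only and 10 were in the class both, with 0 in ER only. Of those above 400 and up to 600 residues, 60.9% were ER only.

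**Figure D4:**
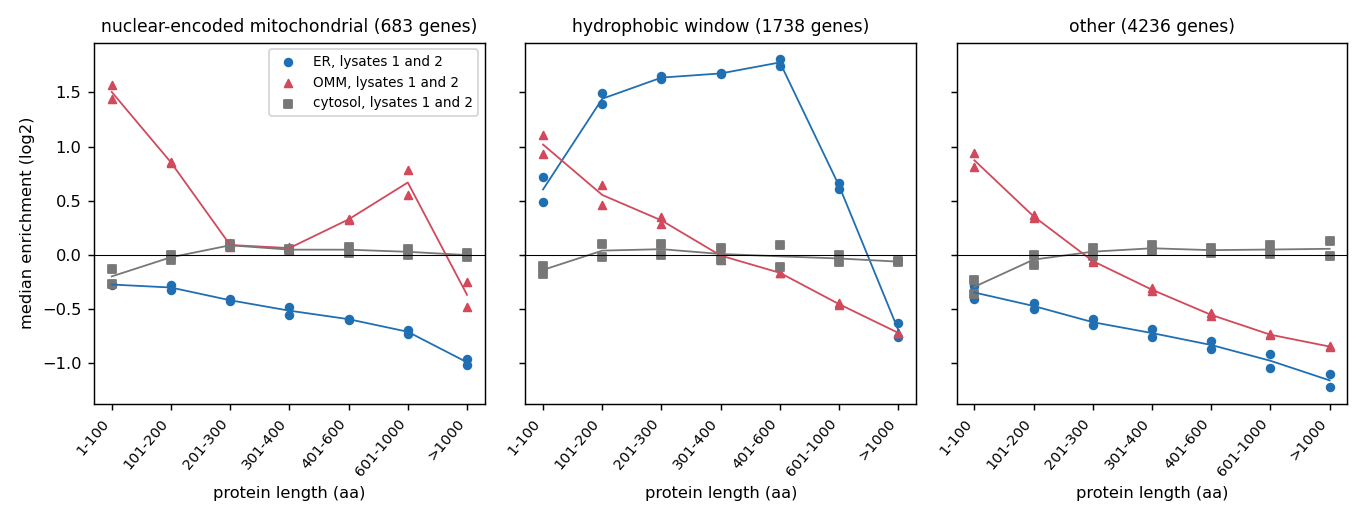
Median log2 enrichment against protein length in amino acids (aa) for nuclear-encoded mitochondrial genes, genes with a hydrophobic window and all others; each point is 1 lysate and lines join the means of 2 lysates. OMM values fall with length in the middle and right panels and turn up again between 400 and 1000 aa in the left panel, and the cytosolic points stay near 0 except in the shortest bins.

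Among genes with a hydrophobic window off the mitochondrial list, ER enrichment differed with the place of the first window and with the number of windows. With the first window within 40 residues, median ER enrichment was 1.94 for 263 genes with 1 window and 1.963 for 417 with more. With the first window beyond residue 40 and up to 100 it was −0.25 for 72 genes with 1 window and 1.72 for 139 with more. Beyond residue 100 and up to 200 it was −0.54 for 131 genes with 1 window and 1.42 for 97 with more. Beyond residue 200 it was −0.75 and −0.60 for 459 and 160 genes. OMM only held 14 of the 72 genes with a single window beyond residue 40 and up to 100 (19.4%), more than in any other of these groups, with 2.28% and 0.48% for windows within 40 residues. A single late window includes tail anchors as well as soluble proteins with a hydrophobic core, which hydropathy does not tell apart.

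Sequencing of intact mRNA (RNA-seq) after pulldown with the same OMM bait gave a readout that the sorting did not use. It came from wild-type cells given a control gRNA and from 1 monoclonal line each without AKAP1 or LARP4, in 2 replicates each. In the total inputs AKAP1 stood at 115 and 119 CPM in wild type and 32.2 and 20.3 in the AKAP1 null line, and LARP4 at 225 and 231 against 79.3 and 74.0 in its null line. Of the 6670 sorted genes with RNA-seq values, 25.4% were enriched in wild type. By class this was 715 of 786 (91.0%) for OMM only, 265 of 355 (74.6%) for both, 141 of 949 (14.9%) for ER only and 570 of 4580 (12.4%) for neither. The class medians in replicates 1 and 2 were 1.04 and 1.14, 0.73 and 0.67, −0.21 and −0.35, and −0.38 and −0.45. With TMM, where 2407 of the 6670 genes were enriched, these shares were 95.8%, 87.0%, 29.8% and 23.2%. Within ER only, 18 of 35 mitochondrial genes (51.4%) were enriched in RNA-seq, and 100 of 785 genes with a hydrophobic window (12.7%). Over all classes 62.7% of mitochondrial genes and 19.8% of genes with a hydrophobic window were enriched, so both shares in ER only lay below those of their kind. Of the named OMM only genes, RESF1 (−0.09), GPD2 (0.24), AARS2 (0.35), SRP9, SERP1 and PACS2 were not enriched in RNA-seq, and DST was lower in the pulldown (−0.85, adjusted p=0.00448).

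The AKAP1 null line changed OMM only genes in both directions. The OMM enrichment was lower than in wild type for 471 of 786 OMM only genes (9.63% of all sorted genes were lower) and higher for 99 (10.3% of all were higher). In the class both, 77 of 355 were lower and 33 higher. The direction differed with protein length and with the kind of gene. Among OMM only genes under 200 residues 324 of 421 were lower and 0 higher, with a median difference of −0.98 from wild type. Over 400 residues 21 of 142 were lower and 90 higher (median difference 0.98), and 81 of those 90 were mitochondrial. Of the 43 long genes off the mitochondrial list and without a window, 17 were lower and 8 higher (20 and 8 with TMM), with a median difference of −0.29. In the class both there were 50 lower and 0 higher of 100 short genes and 3 lower and 28 higher of 98 long ones. Short secretory and short mitochondrial genes were among those that fell. NENF changed from 2.41 to 0.79 (difference −1.62), NMB by −1.44, C4orf48 by −2.22, SEC61B by −1.56, SEC61G by −1.43 and OST4 by −1.65, beside −2.04 for COX5B and −2.23 for RPL23A. Long mitochondrial genes that rose included IARS2 (difference of 1.31), ALDH18A1 (1.24), GPAM (1.67) and EXD2 (1.32). NRIP1 (1.47) and RESF1 (1.40) were among the 8 of 43 long genes of neither kind that rose, and each of these had an adjusted p below 0.05. For ER only genes 219 were higher and 5 lower, but with TMM 25 were higher and 8 lower, against 197 higher and 768 lower of all sorted genes, so the size of that count depended on the scaling. In the LARP4 null line 0 sorted genes differed from wild type with edgeR at an adjusted p below 0.05, in either direction and with either scaling. At an unadjusted p below 0.05, 873 were higher and 475 lower (83 and 946 with TMM). Class medians in this line were 0.75 for OMM only, 0.58 for both and −0.09 for ER only. With library totals, the median difference from wild type was −0.33 for OMM only and −0.11 for both. It was 0.16 for ER only and 0.14 for all sorted genes. The OMM only medians of the 2 LARP4 null replicates were 0.87 and 0.64.

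**Figure D5:**
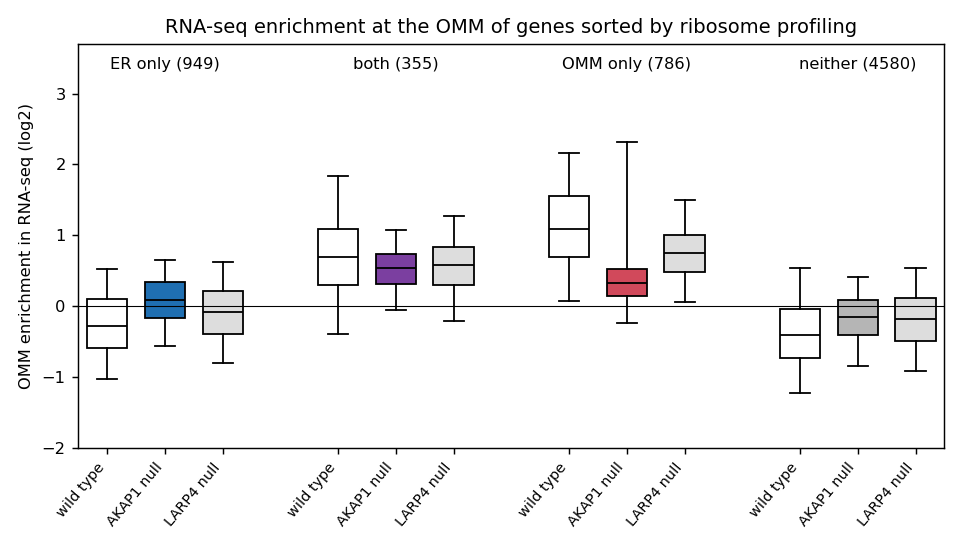
Boxes give the log2 OMM enrichment in RNA-seq of the genes of each ribosome profiling class in wild-type, AKAP1 null and LARP4 null lines, with medians, quartiles and whiskers at the 5th and 95th percentiles. In AKAP1 null cells the OMM only median is 0.33 against 1.08 in wild type, with an upper whisker above that of wild type, and the class both is at 0.54 against 0.69.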

How the data were processed

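Ribosome profiling covered ER, OMM and cytosolic LOV-BirA (12 libraries). The authors removed rRNA and tRNA reads with Bowtie, aligned unique footprints to GRCh38, assigned each to its central bases, excluded positions without unique alignment and deposited estimated counts for each gene region. They also deposited RPKM, used here for marker levels. For RNA-seq the authors deposited read counts per gene (12 libraries with CHX used, CHX in the null lines being assumed from the general protocol).

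Coding-sequence estimated counts were rounded and fitted with edgeR 4.0.16 (quasi-likelihood, two-sided, R 4.3.3) over all 12 libraries, with a term per lysate and a pulldown effect per location. Pulldown and total input of a lysate were paired, as in the study, and their deviations from the location mean correlated across genes at 0.762 (ER), 0.592 (mito) and 0.871 (cytosol). Library sizes were coding-sequence totals. P-values were adjusted (Benjamini-Hochberg) over 6675 genes, and calls have an adjusted p below 0.05. Entries naming several genes (1079, 5.86% to 8.56% of counts) stayed in totals only, so SYNJ2BP, the gene of OMP25, is not analysed here. Values per lysate add 0.5 footprints. RNA-seq was fitted likewise on genes with a mean of at least 64 counts. On simulated data with 200 changed genes the contrast found 76.5% of log2 changes of 1 (4 false calls) and 11.0% of 0.5 (2 false calls). The simulated counts followed the fitted trend of the spread, with no lysate difference beyond depth and no shift of the median contrast. Their false calls therefore do not cover errors of scaling.

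The mitochondrial list took gene names from supplementary sheets held whole. It held 936 genes, and 121 names could not be matched to a gene with its own entry. Some genes counted as off the list may therefore be mitochondrial. Coordinates and 1 coding sequence per gene (the MANE Select transcript, otherwise the longest) are from GENCODE 44. Members, lists, bins and rules were chosen with earlier results of these data known. Named genes are the 15 largest contrasts each way, the 10 leading genes of the class both, the 8 leading mitochondrial genes in ER only and genes with a window in OMM only, 3 per list with those against their list, bait and tag genes, and genes at the class limits. Others were named after their values were seen. A few items that this rule names are not reported here. Alternatives were TMM, mapped reads as library sizes, DESeq2 1.42.0, minimums of 10 and 256 footprints, fewer libraries, other thresholds, no lysate term and leaving out replicates. Other steps ran in Python 3.11.15 with pandas 2.3.3, numpy 2.4.6 and matplotlib 3.10.9. P-values measure the spread between 2 lysates per location, which may be technical.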

Additional observations from a re-analysis of the deposited data

Results flagged for a closer look

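Between AKAP1 null and wild-type RNA-seq, the OMM enrichment was lower in AKAP1 null cells for 471 genes of the class OMM only and for 77 of the class both, by a test of the difference between the lines. With TMM these counts were 528 and 95.

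In the class ER only, the same test gave 219 genes with a higher OMM enrichment in AKAP1 null cells. With TMM there were 25, and the median difference of all sorted genes between the lines was 0.23 on the log2 scale (0.06 with TMM).

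Although enriched at both membranes, 31 genes of the class both were higher at the OMM when ER and OMM enrichment were tested against each other, against 224 that were higher at the ER.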

How the results depend on the processing

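In no alternative was a called gene called in the other direction. Genes higher at the OMM numbered 1061 with TMM, 962 with mapped reads as library sizes, 904 with DESeq2 and 733 above an absolute log2 of 1, 1268 to 1648 with 1 lysate left out in turn and 923 with lysates 2 alone. The class both held 931 (TMM), 846 (DESeq2), 196 (the higher minimum of footprints), 67 (log2 above 1), 225 to 332 with 1 lysate left out and 233 with lysates 2 alone, and OMM only held 340 above a log2 of 1. A minimum of 10 footprints gave 1884 genes higher at the ER and 1693 ER only, and the higher minimum, 4 times the one used, gave 619 and 408, with 2371 in neither, since other numbers of genes were tested. Without the replicate block, which ignores that total input and pulldown came from 1 lysate, 838 genes were higher at the ER and 510 at the OMM, with 411 OMM only and 106 in both. Leaving out cytosolic ribosomal protein genes, chosen after seeing the data, left 730 OMM only. A class limit at the exact median of all genes was not run apart from TMM, under which the median contrast was −0.03. With lysates left out, a location left with 1 lysate is assumed to vary like the others.

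Relative list medians at a minimum of 10 footprints were 0.32 (contact proteins), −0.067 (SLC25), −0.71 (matrix metabolic enzymes) and 0.50 (peroxisomal). At the higher minimum they were 1.56 (translocon), 0.37 (contact), −0.78 (matrix translation), −1.36 (OXPHOS), −1.44 (intermembrane space), 0.025 (peroxisomal) and, reversed, 0.049 (cytosolic synthetases).

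With 1 lysate left out in turn, the relative list medians that moved by more than the spread between lysate pairings ranged from 0.90 to 1.09 (ER translocon and signal recognition), 2.38 to 2.69 (solute carriers outside SLC25), 0.43 to 0.56 (ER-mitochondria contact proteins), −0.25 to −0.16 (SLC25 inner-membrane carriers), −0.70 to −0.44 (matrix metabolic enzymes), −0.44 to −0.29 (matrix import, peptidases, chaperones and proteases), −1.35 to −1.17 (intermembrane-space small TIM and CHCHD proteins), −1.57 to −0.61 (genes of the mitochondrial genome), 0.33 to 0.39 (peroxisomal biogenesis and membrane proteins), −0.42 to −0.26 (proteasome subunits), −0.19 to 0.057 (glycolytic enzymes), −0.12 to −0.059 (cytosolic aminoacyl-tRNA synthetases) and −1.27 to −1.20 (cytosolic ribosomal proteins), that of glycolytic enzymes reversing without ER lysate 2. With lysates 2 alone, which shared a run, they were 0.45 (ER-mitochondria contact proteins), −0.12 (outer mitochondrial membrane proteins), −0.79 (matrix metabolic enzymes), −1.54 (small nuclear-encoded OXPHOS subunits), −1.40 (intermembrane-space small TIM and CHCHD proteins), −0.24 (proteasome subunits) and −1.28 (cytosolic ribosomal proteins).

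The share enriched in wild-type RNA-seq with classes above a log2 of 1, and with RNA-seq scaled by TMM, was 24.1% and 29.8% in ER only, 93.5% and 95.8% in OMM only, 91.0% and 87.0% in both and 20.3% and 23.2% in neither. The share with a hydrophobic window above a log2 of 1, and at a hydropathy of 2, was 88.7% and 69.5% in ER only, 17.4% and 3.95% in OMM only and 83.6% and 54.4% in both, and 2.87% in neither at a hydropathy of 2. With TMM, 25 ER only genes were higher in AKAP1 null RNA-seq. Of named genes, C4orf48, SCPEP1 and SELENOM reversed with TMM (0.21, 0.24 and 0.20), mapped reads (0.27, 0.29 and 0.25) and DESeq2 (0.22, 0.24 and 0.21). With 1 lysate left out NENF ranged from −0.093 to 0.32 and SCPEP1 from −0.34 to 0.25, NENF was −0.22 with lysates 2 alone, and none of these 4 was called. Over all named genes and alternatives, 1469 of 1635 values kept direction and call, 144 lost and 8 gained a call, and 14 reversed. The cause was not tested. The shallow mito pulldown of lysate 1 limits low genes.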
